A study of Mus musculus with 4 samples.

Results

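The 9 genes described here belong to the Notch pathway and were taken by symbol from the 28006 features of the count tables. They are the receptors Notch1, Notch2 and Notch3, the ligands Jag1 and Dll4, and the transcriptional targets Hes1, Hey1, Heyl and Nrarp. All 9 were found, and their levels were followed across cell classes and between ablated and control femurs.

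Notch receptors are cell-surface proteins that are bound by Jagged or Delta-like ligands on a neighbouring cell. Binding leads to cleavage of the receptor, and the freed intracellular domain joins the DNA-binding protein RBPJ in the nucleus and switches on Hes and Hey repressors and Nrarp, a feedback inhibitor of the pathway. In vessels the pathway is known for artery formation through Dll4 and for the coat of mural cells through Jag1 and Notch3, and in marrow stroma it is known to hold back osteoblast differentiation.

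The data were single-cell RNA-seq counts of unique molecular identifiers (UMIs) of tdTomato+ cells sorted from femurs of Cxcl12-iCreER; R26R(tdTomato/+) mice. All mice received tamoxifen 7 days before surgery and cells were collected 7 days after it, so CONT (the unoperated contralateral femur) and ABL (the femur whose marrow was removed with an endodontic file) shared genotype, tamoxifen and time. There were 2 biological replicates of each condition, 4 libraries in all, with Chromium chemistry version 2 in replicate 1 and version 3 in replicate 2. The iCreER is driven by a Cxcl12 transgene, so it marks cells with Cxcl12 expression at the time of tamoxifen and their progeny, and replicate 1 was pooled from several mice whose age the labels do not give.

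The cell filter kept 4809 and 1768 cells of replicate 1 (CONT, then ABL) and 2478 and 2720 of replicate 2, the order used for the 4 libraries throughout, with median depths of 4287 to 12684 UMIs per cell. A tdTomato UMI was found in 2674, 1101, 2169 and 2343 of them, and the rest included many hematopoietic cells. The classes used most were reticular cells (1408, 421, 2014 and 408 cells) and endothelial cells (146, 73, 26 and 134). Their defining markers were present in every library: Cxcl12 in reticular cells stood at 14051 to 17156 CPM (the gene's share of all UMIs of the class in that library, on the usual CPM scale), and all 12 endothelial markers were detected in endothelial cells. The endothelial sums were not free of other RNA. In them 9 neutrophil markers summed to 29186, 10842, 143 and 9000 CPM, against 9024, 4128, 10788.5 and 8478 CPM for the endothelial markers. Erythroid markers summed to 25579, 8112, 1077 and 89.9 CPM there. Mural cells, the smooth muscle cells and pericytes around vessels, numbered 18 and 13 in replicate 1 and 13 in ABL replicate 2, with no such cluster in CONT replicate 2. The mural clusters of replicate 1 also carried all 4 Schwann cell markers, which summed to 6642 and 5588 CPM there and to 0 in ABL replicate 2. Mbp, 1 of them, stood at 1693 and 1764 CPM in replicate 1.

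The libraries differed in ways that bear on the comparison of conditions. Xist, transcribed in female cells, stood at 405, 586, 740 and 0.111 CPM over all cells, and the Y-linked Ddx3y at 29.2, 10.5, 34.2 and 60.2 CPM. ABL replicate 2 was therefore the only library without an appreciable female contribution, so the female mice of CONT replicate 2 were not among those of ABL replicate 2. The 2 libraries of replicate 1 shared 149 cell barcodes (3.10% of CONT and 8.43% of ABL cells), against 1 in replicate 2. The endothelial cells of ABL replicate 1 had a median of 1323 UMIs, and their reticular markers summed to 7833 CPM against 2345, 3002 and 641 in the other endothelial classes. For Notch2, Notch3 and Heyl, and for the comparison of conditions in endothelial cells, values without that library are also given below.

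On the mouse genome GRCm38 (GENCODE), Notch1 lies on chromosome 2 from 26457903 to 26516663 on the minus strand, Notch2 on chromosome 3 from 98013527 to 98150361 on the plus strand, and Notch3 on chromosome 17 from 32120820 to 32166852 on the minus strand. Jag1 lies on chromosome 2 from 137081456 to 137116644 on the minus strand and Dll4 on the same chromosome from 119325784 to 119335962 on the plus strand. Hes1 is on chromosome 16 from 30064384 to 30067796 and Heyl on chromosome 4 from 123233556 to 123249875, both on the plus strand. Hey1 is on chromosome 3 from 8663359 to 8667256 on the minus strand and Nrarp on chromosome 2 from 25180758 to 25183339 on the plus strand.

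The promoters of Dll4 and Nrarp, the genes with the widest endothelial difference below, and of Notch3, highest in mural cells, are shown as the 250 bases upstream of the start in RefSeq (GRCm38.p6), 5′ to 3′ on the gene's strand. RefSeq promoters were at hand for 6 of the 9 genes. Capitals mark the motifs searched on both strands, CACGTG and CACGCG (short boxes bound by Hes and Hey repressors) and TGGGAA (the core of RBPJ sites).
Dll4 (chr2:119325534-119325783, plus strand, overlapping an exon of Gm14207): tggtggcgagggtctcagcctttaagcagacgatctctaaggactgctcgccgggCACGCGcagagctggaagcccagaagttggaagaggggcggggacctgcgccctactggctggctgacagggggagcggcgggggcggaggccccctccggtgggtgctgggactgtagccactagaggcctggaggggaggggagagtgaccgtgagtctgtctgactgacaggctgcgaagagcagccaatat
Nrarp (chr2:25180508-25180757, plus strand): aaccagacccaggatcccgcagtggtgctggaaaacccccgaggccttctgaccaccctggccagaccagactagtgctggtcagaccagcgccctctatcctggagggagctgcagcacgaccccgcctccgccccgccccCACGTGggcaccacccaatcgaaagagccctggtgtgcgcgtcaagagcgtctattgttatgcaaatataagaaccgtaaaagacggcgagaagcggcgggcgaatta
Notch3 (chr17:32166891-32167140, minus strand): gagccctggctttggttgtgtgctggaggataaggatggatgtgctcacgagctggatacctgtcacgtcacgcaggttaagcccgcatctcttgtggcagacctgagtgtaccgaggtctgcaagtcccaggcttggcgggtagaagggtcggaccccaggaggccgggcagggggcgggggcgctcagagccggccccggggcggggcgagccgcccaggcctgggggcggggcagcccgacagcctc

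CACGCG was found 195 bases upstream of the RefSeq start of Dll4, 249 and 171 bases upstream of that of Jag1 and 42 bases upstream of that of Notch2. The windows of Jag1, Notch2 and Notch1 overlapped GENCODE exons of these same genes, so these distances are not from the gene ends given above. That of Notch1 (26503823 to 26504072 on chromosome 2) lay wholly within the gene span given above. CACGTG was found 108 bases upstream of Nrarp. Of 32851 promoter windows of this length, 7.62% held CACGCG, 6.02% held CACGTG and 21.6% held TGGGAA, and TGGGAA was in none of the 6 windows examined. These are matches of letters in a short window and say nothing about binding.

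The 9 genes fell into a few patterns across cell classes, shown in the plot of levels by class. Dll4 was an endothelial transcript, Nrarp an endothelial and mural one, Notch3 a mural one also found in reticular cells and pre-osteoblasts, and Hey1 was highest in the pre-osteoblasts of replicate 1. Notch1 was present in most classes, with its highest median over libraries in endothelial cells (153 CPM) and the next in mural cells (74.0 CPM). The endothelial range of Notch1 (65.0 to 282 CPM) overlapped the mural one (56.4 to 120 CPM). Notch2 was at a like level in reticular, pre-osteoblast and monocyte classes. CPM levels are compared between classes of 1 gene and not between genes.

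**Figure D1:**
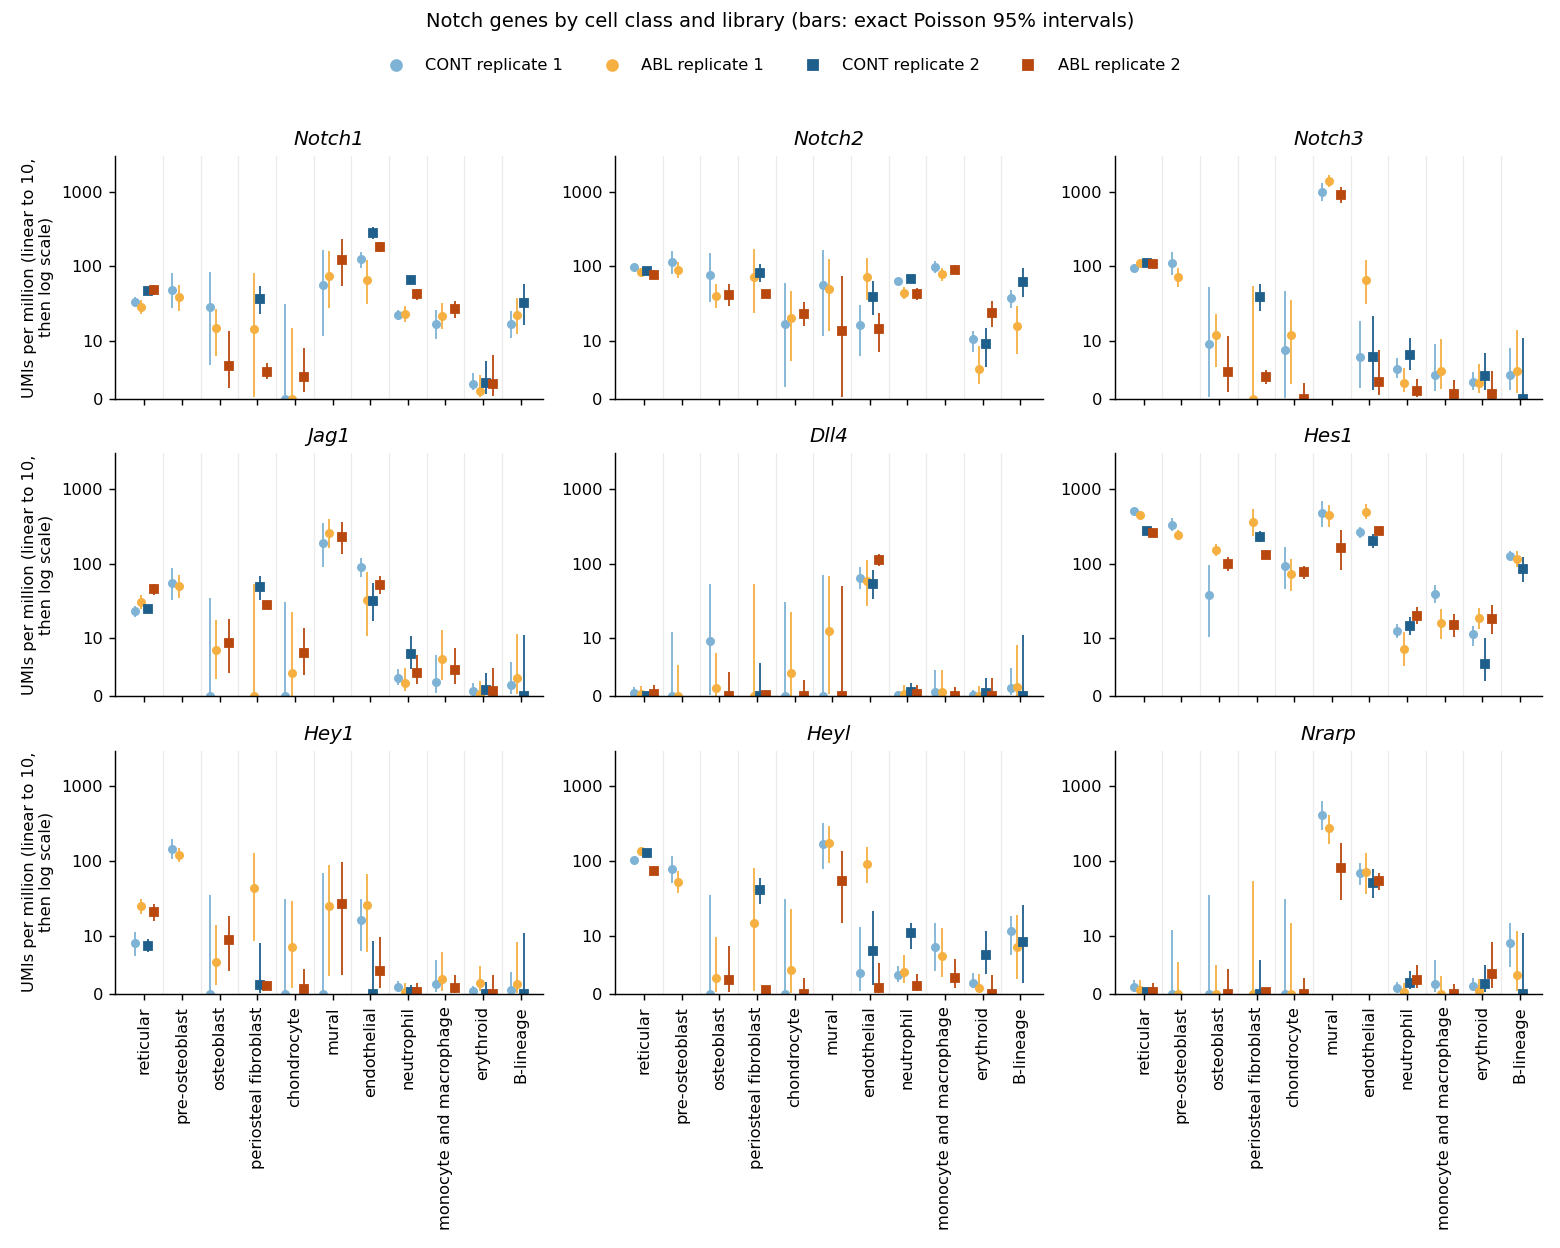
CPM of the 9 Notch genes (y axis, linear to 10 and log above) in mesenchymal, mural, endothelial and hematopoietic classes (x axis) of the 4 libraries, with exact Poisson 95% intervals that cover counting error. Dll4 was high in endothelial cells (53.5 to 113 CPM) and Notch3 in mural cells (896 to 1394 CPM), and the highest Hey1 levels were those of pre-osteoblasts (146 and 122 CPM).

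Endothelial cells differed from reticular cells in 6 of the 9 genes. Summed UMIs of both classes were compared within libraries with edgeR's quasi-likelihood test and Benjamini-Hochberg adjustment over 11298 genes, of which 29.6% passed an adjusted p of 0.05 in either direction. Notch1, Dll4 and Nrarp were higher in endothelial cells and Notch2, Notch3 and Heyl were lower (13.6% and 16% of all genes tested passed as higher and lower), while Jag1, Hes1 and Hey1 did not pass. Dll4 and Nrarp were too low to be tested in reticular cells alone, so they entered this fit through their endothelial counts. For genes that pass the filter on low counts in this way, a call as higher is close to fixed in advance. Their calls and p-values therefore add little to the levels given below. The median log2 difference of the 9 genes was -0.43 and that of all genes tested was -0.09.

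Among the receptors, Notch1 stood at 123, 65.0, 282 and 182 CPM in endothelial cells and at 33.3, 28.8, 47.0 and 48.1 CPM in reticular cells. The lowest endothelial library was above the highest reticular one, and the fitted log2 difference was 1.84 ± 0.22 (SE, n = 4 libraries, edgeR adjusted p = 0.000209). After thinning each cell to 2000 UMIs, a Notch1 UMI was found in 23.0%, 26.7%, 34.6% and 26.1% of endothelial cells, in 7.23%, 6.36%, 9.04% and 9.31% of reticular cells and in 3.49%, 4.49%, 9.46% and 6.28% of hematopoietic cells (only 15 endothelial cells of ABL replicate 1 were deep enough to be thinned). Reticular shares of Notch1 in replicate 2 were thus near those of hematopoietic cells, which can carry Notch1 of their own as well as free RNA.

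Notch2 ran the other way, at 16.1, 71.5, 38.9 and 14.3 CPM in endothelial cells and 97.2, 84.8, 85.0 and 77.0 CPM in reticular cells. The ranges did not overlap, and the log2 difference was -1.80 ± 0.34 (SE, edgeR adjusted p = 0.00284), or -2.11 ± 0.29 (adjusted p = 0.000991) without ABL replicate 1. Monocytes and macrophages held 97.7, 77.6 and 89.9 CPM in the 3 libraries where they were named, a range that overlapped that of reticular cells.

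Notch3, the receptor of vascular smooth muscle and pericytes, stood at 997, 1394 and 896 CPM in mural cells (exact Poisson 95% intervals 747 to 1304, 1149 to 1676 and 694 to 1138). Reticular cells held 94.8, 111, 110 and 108 CPM and endothelial cells 7.15, 65.0, 7.29 and 2.87 CPM. The pre-osteoblasts of replicate 1 held 110 and 71.8 CPM, above reticular cells in CONT and below them in ABL. Mural intervals lay above every other class of their library, and reticular levels lay close together in all 4 libraries. In hematopoietic cells Notch3 was at 4.30, 3.34, 5.95 and 1.10 CPM. The endothelial against reticular log2 difference was -3.42 ± 0.53 (SE, edgeR adjusted p = 0.000913), and -4.42 ± 0.32 (adjusted p = 4.98e-05) without ABL replicate 1, whose endothelial value of 65.0 CPM stood apart.

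Of the ligands, Dll4 was nearly specific in level to endothelial cells, with 64.3, 58.5, 53.5 and 113 CPM there (36, 9, 22 and 118 UMIs). In reticular cells it was found as 4, 1, 2 and 1 UMIs, or 0.631, 0.327, 0.0765 and 0.339 CPM, and in hematopoietic cells it was at 0.220 to 0.680 CPM. The log2 difference between endothelial and reticular cells was 7.70 ± 0.41 (SE, edgeR adjusted p = 1.28e-06), a value that rests on few reticular UMIs. The SE, taken from the F statistic of the test, can understate the counting error of so few UMIs. A Dll4 UMI was found in 14.2%, 6.67%, 15.4% and 17.2% of endothelial cells after thinning, against at most 0.244% of reticular cells. Dendritic cells of replicate 1 held 9.05 and 6.97 CPM in 66 and 23 cells.

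Jag1 was highest in mural cells, at 188, 259 and 227 CPM (10, 21 and 17 UMIs). Endothelial cells held 89.4, 32.5, 31.6 and 51.6 CPM, pre-osteoblasts 55.1 and 49.8 CPM, and reticular cells 23.0, 30.8, 24.8 and 45.1 CPM. Endothelial levels were higher than reticular ones in every library, as were those of 20.3% of all genes tested, but the ranges overlapped. The log2 difference of 0.63 ± 0.33 did not pass the test (SE, edgeR adjusted p = 0.192), and with a floor on UMIs per cell or a stricter cell filter Jag1 was no longer higher in every library.

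Of the targets, Nrarp stood at 67.9, 71.5, 51.0 and 53.6 CPM in endothelial cells and at 414, 271 and 80.2 CPM in mural cells (22, 22 and 6 UMIs). Reticular cells held 1.10, 0.655, 0.344 and 0.339 CPM, and neither pre-osteoblasts nor osteoblasts held an Nrarp UMI. The endothelial against reticular log2 difference was 6.47 ± 0.35 (SE, edgeR adjusted p = 1.28e-06), and like Dll4 the gene entered that fit through its endothelial counts. The mural value of ABL replicate 2 was the lowest of the 3, and its interval of 29.4 to 175 CPM overlapped that of ABL replicate 1 (170 to 411 CPM) but not that of CONT replicate 1 (259 to 627 CPM). The higher mural values came from the clusters of replicate 1 that also held Schwann cell markers, whose part in them was not tested.

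Heyl was found in the classes that held Notch3, without the same order among them. It stood at 169, 173 and 53.5 CPM in mural cells, 102, 135, 126 and 73.2 CPM in reticular cells, 77.7 and 52.8 CPM in pre-osteoblasts and 3.57, 91.0, 7.29 and 0.957 CPM in endothelial cells. Mural cells were above reticular cells in replicate 1, where their clusters also held Schwann cell markers. They were below reticular cells in ABL replicate 2 (4 UMIs, interval 14.6 to 137 CPM). The endothelial value of ABL replicate 1 again stood apart. The log2 difference was -3.37 ± 0.63 (SE, edgeR adjusted p = 0.00255), and -5.01 ± 0.35 (adjusted p = 4.46e-05) without that library. With the free RNA profile subtracted from each class, the calls of Notch2, Notch3 and Heyl no longer passed (adjusted p = 0.114, 0.0521 and 0.0633), although their log2 differences were -2.31, -3.89 and -3.69. That subtraction took 77.5% of the endothelial UMIs of ABL replicate 2, against 21.04% and 13.2% in replicate 1 and 0.708% in CONT replicate 2.

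Hes1, the target that many signals besides Notch can induce, was present in both classes at 499, 449, 273 and 257 CPM in reticular cells and 263, 494, 202 and 276 CPM in endothelial cells. Levels in both classes overlapped, and the log2 difference of -0.43 ± 0.25 did not pass the test (SE, edgeR adjusted p = 0.239). Both replicate 1 libraries lay above both replicate 2 libraries in reticular cells, so Hes1 differed more between replicates than between conditions. In empty droplets Hes1 was at 180, 166, 208 and 84.2 CPM, whereas neutrophils held 12.6, 8.06, 14.7 and 20.1 CPM.

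Hey1 was low in endothelial cells, at 16.1, 26.0, 0 and 3.83 CPM (9, 4, 0 and 4 UMIs), and did not differ from reticular cells beyond the error (log2 difference -0.87 ± 0.61, SE, edgeR adjusted p = 0.3325). Where endothelial cells were instead taken by their own marker UMIs, which was possible in 2 libraries, the difference was -2.03 ± 0.65 (adjusted p = 0.0499).

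**Figure D2:**
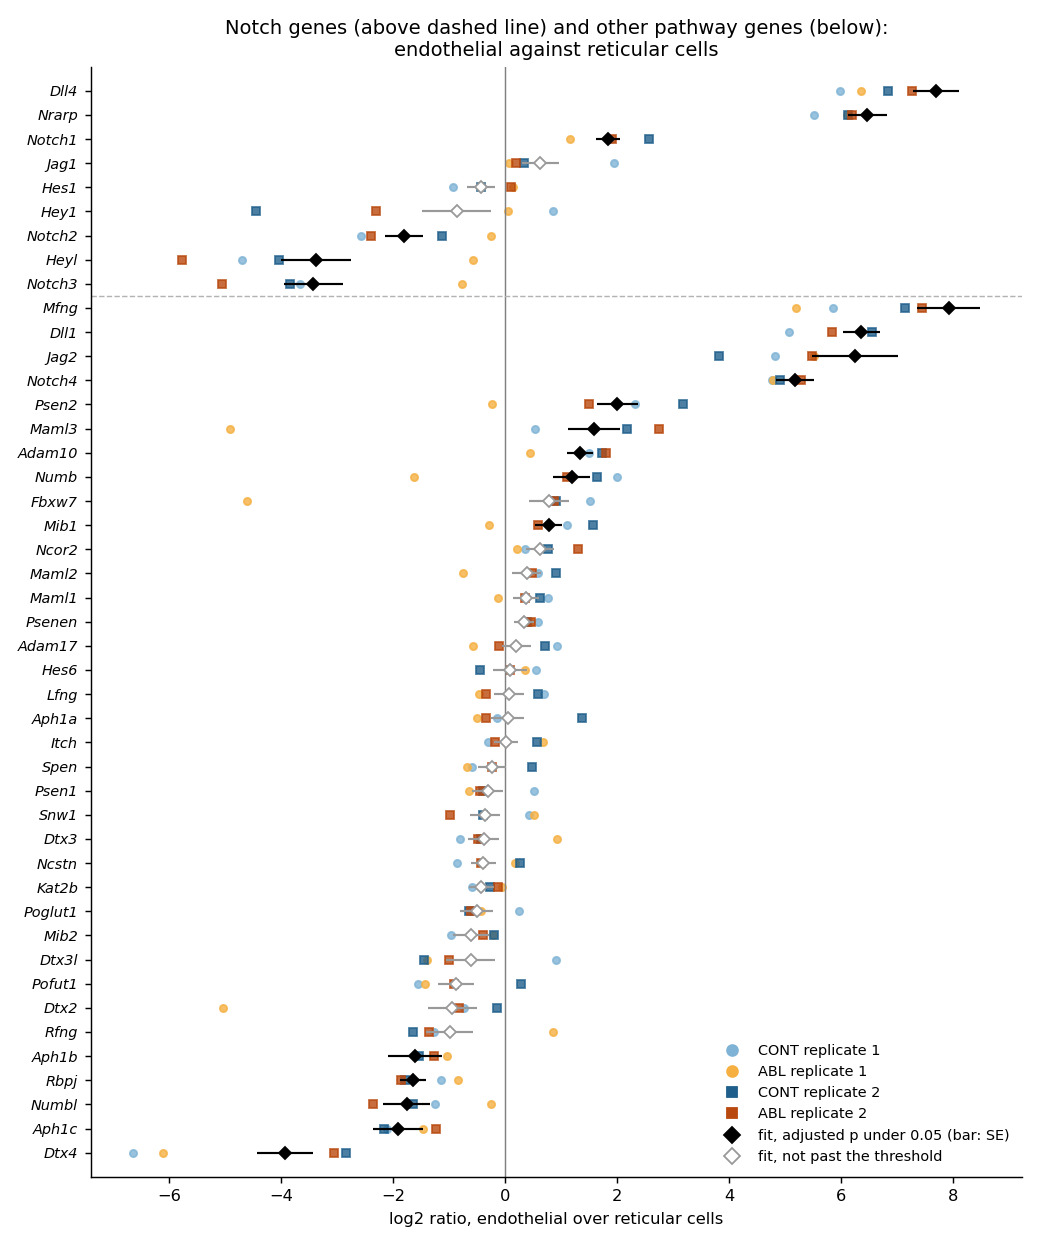
Log2 ratio of endothelial over reticular cells (x axis) for the 9 Notch genes and the 36 other pathway genes tested (y axis). Coloured points are libraries, computed with a prior count of 2 that draws sparse genes towards 0, and diamonds with SE bars are the fit; Dll4 (7.70) and Notch3 (-3.42) mark the ends of the range among the 9 genes.

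Of 47 other genes of the pathway, 36 were tested in the same fit, of which 9 were higher in endothelial cells, 5 were lower and 22 did not pass. The higher genes included the receptor Notch4 (log2 difference 5.18 ± 0.34), the ligands Dll1 (6.36 ± 0.33) and Jag2 (6.25 ± 0.76), and Mfng (7.92 ± 0.56), a fringe enzyme that adds sugars to Notch receptors. Like Dll4 and Nrarp, Notch4, Dll1, Jag2 and Mfng were too low to be tested in reticular cells alone, so the same limit holds for their calls. Notch4 stood at 44.7, 19.5, 46.2 and 54.5 CPM in endothelial cells and at no more than 1.26 CPM in reticular cells, Dll1 at 44.7, 58.5, 163 and 61.2 CPM against no more than 1.34 CPM, and Mfng at 59.0, 26.0, 60.8 and 67.9 CPM against no more than 0.631 CPM. The other higher genes were Psen2 (2.01), a part of the gamma-secretase that cuts the receptor, the sheddase Adam10 (1.34), the co-activator Maml3 (1.58), Numb (1.19), an inhibitor of Notch, and the ligand-processing Mib1 (0.78).

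The 5 pathway genes lower in endothelial cells were Dtx4 (log2 difference -3.92 ± 0.50), a ubiquitin ligase of the Deltex family, the gamma-secretase subunits Aph1b (-1.60) and Aph1c (-1.91), Numbl (-1.76), a relative of Numb, and Rbpj (-1.64 ± 0.24), the DNA-binding partner of the receptors. Rbpj stood at 124, 93.7, 303 and 142 CPM in reticular cells and 55.4, 52.0, 87.5 and 39.2 CPM in endothelial cells. The reticular range lay above the endothelial one, and CONT replicate 2 was the highest library in both. Aph1b and Aph1c are close relatives and their reads could be shared.

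Within endothelial cells, those with at least 1 UMI of an arterial marker (Gja4, Gja5, Bmx, Sox17, Sema3g or Efnb2) numbered 42, 7, 22 and 88 and those without 104, 66, 4 and 46. Cells with such a UMI were also deeper, with means of 4884, 6686, 17234 and 8580 UMIs against 3407, 1621, 8053 and 6314. Dll4 stood at 78.0, 150, 58.0 and 132 CPM in cells with a marker UMI and 56.4, 18.7, 0 and 62.0 CPM in those without, higher in all 4 libraries. The intervals did not overlap in ABL replicate 2 (108 to 161 against 36.7 to 97.9 CPM) and overlapped in the other 3.

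Hes1 in ABL replicate 2 likewise stood at 340 CPM with an arterial marker UMI and 110 CPM without, with intervals of 300.03 to 385 and 75.4 to 156 CPM. In ABL replicate 1 the order of Hes1 was the opposite, at 449 and 514 CPM. Nrarp stood at 117, 192, 52.7 and 53.0 CPM with and 39.5, 18.7, 31.0 and 55.1 CPM without a marker UMI, so it was higher in 3 of 4 libraries. In CONT replicate 1 the Nrarp intervals of 75.0 to 174 and 21.6 to 66.3 CPM did not overlap. No test was made of this split, since it is by cells. How many of all genes were higher in cells with a marker UMI was not counted. The part of depth and of RNA from other classes in these differences was not tested.

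**Figure D3:**
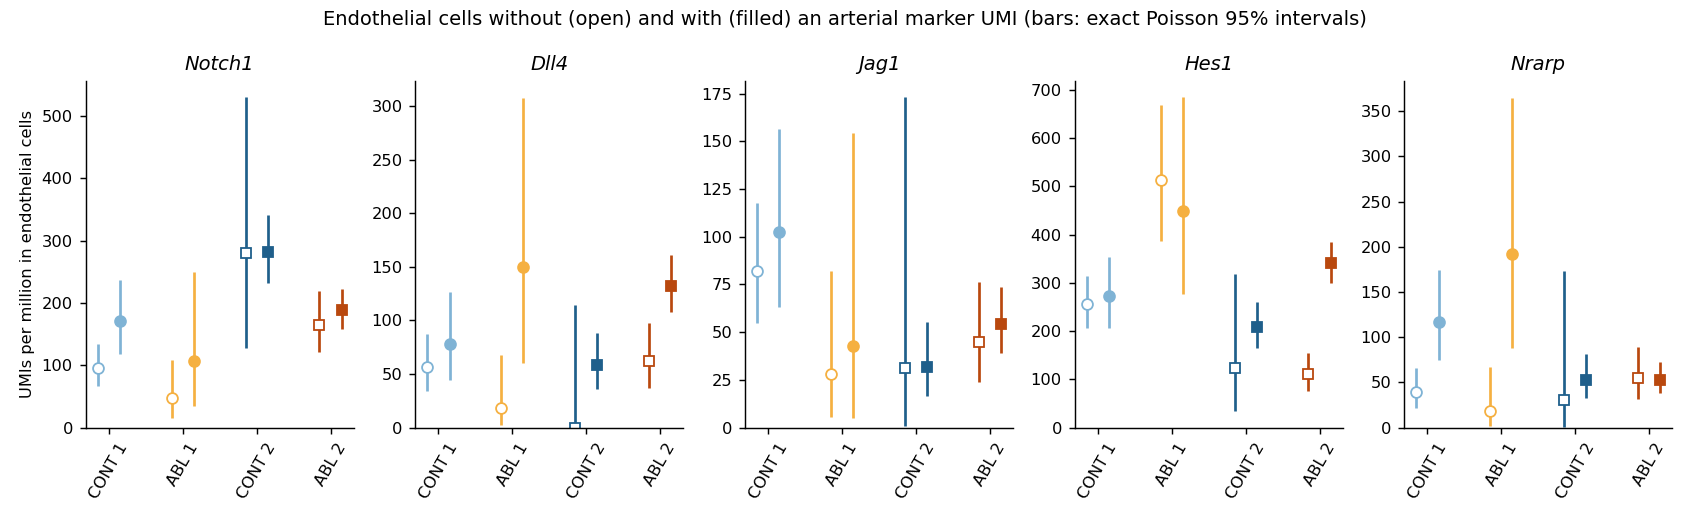
CPM (y axis) of 5 Notch genes in endothelial cells with (filled) and without (open) a UMI of an arterial marker, for the 4 libraries (x axis), with exact Poisson 95% intervals. Dll4 was higher in cells with a marker UMI in all 4 libraries, with intervals apart in ABL replicate 2.

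Along the mesenchymal lineage, Hey1 was high in the pre-osteoblasts of replicate 1 and low in osteoblasts. It stood at 146 and 122 CPM in the pre-osteoblasts of replicate 1 (45 and 83 UMIs in 62 and 105 cells), at 0, 5.36 and 9.16 CPM in osteoblasts (CONT replicate 1, ABL replicate 1 and ABL replicate 2) and at 8.68, 24.9, 8.15 and 20.3 CPM in reticular cells. Intervals of pre-osteoblasts (106 to 195 and 96.9 to 151 CPM) lay above all other mesenchymal values of Hey1, and neither replicate 2 library had a pre-osteoblast class. In ABL replicate 2, 517 mesenchymal cells were given no class, and Hey1 stood at 6.35 CPM in them. A Hey1 UMI was found in 22.2% and 16.9% of thinned pre-osteoblasts and in no more than 0.354% of thinned hematopoietic cells.

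Pre-osteoblasts and osteoblasts together (80, 194 and 49 cells in CONT replicate 1, ABL replicate 1 and ABL replicate 2) were compared with reticular cells over 3 libraries. None of the 7 Notch genes tested passed, where 6.72% of 10758 genes did (3.31% as higher and 3.41% as lower). The log2 differences were 1.76 ± 0.64 for Hey1 (SE, n = 3 libraries, edgeR adjusted p = 0.165), -1.98 ± 0.47 for Heyl (adjusted p = 0.0520), -0.90 ± 0.26 for Hes1 (adjusted p = 0.0891) and -1.39 ± 0.54 for Notch3 (adjusted p = 0.190). Notch1, Notch2 and Jag1 had log2 differences between -0.42 and -0.13, and Dll4 and Nrarp were too low to be tested.

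The outcome of that comparison depended on the libraries and on how classes were named. Without ABL replicate 2, whose lineage cells were all named osteoblasts, Hey1 was higher by 2.47 ± 0.27 (SE, adjusted p = 1.93e-18), Heyl lower by a log2 difference of -1.53 ± 0.27 (adjusted p = 2.96e-07), Hes1 lower by -0.97 ± 0.28 (adjusted p = 0.00595) and Notch3 lower by -0.73 ± 0.25 (adjusted p = 0.0318), on 2 libraries. Without CONT replicate 1 Heyl (-2.67, adjusted p = 8.69e-06) and Notch3 (-2.09, adjusted p = 0.000361) passed and Hey1 did not (0.78, adjusted p = 0.254). Each of these fits left 1 residual degree of freedom and called more genes than the fit over 3 libraries. Without ABL replicate 2, 1326 of 10393 genes passed, and without CONT replicate 1, 1452 of 10242 genes did. With classes named from the clustering of each library alone, neither CONT library had cells of the osteoblast lineage. That fit used the 2 ABL libraries only and left 1 residual degree of freedom. In it ABL replicate 2 had a cluster of 273 cells named pre-osteoblast, and the log2 difference of Hey1 was 0.27 ± 0.75 (SE, edgeR adjusted p = 0.910). Of the 32 other pathway genes tested over all 3 libraries, Rbpj alone passed and was lower in the osteoblast lineage (log2 difference -1.52 ± 0.23, adjusted p = 0.0115), at 48.6 and 48.4 CPM in pre-osteoblasts and 9.46, 14.7 and 32.1 CPM in osteoblasts.

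Periosteal fibroblasts numbered 32 cells in CONT replicate 2 and 706 in ABL replicate 2. In them Notch3 stood at 38.9 and 3.70 CPM, Heyl at 40.5 and 0.664 CPM, Notch1 at 35.8 and 4.65 CPM and Jag1 at 48.3 and 27.5 CPM in these 2 libraries. All 4 genes named here were lower in the ABL library, and only replicate 2 held enough of these cells in both conditions. How many of all genes were lower there was not counted and the other Notch genes are not given, so the direction does not set these 4 apart. The cells came from different clusters: 28 of the 32 CONT cells were in cluster 11 and 4 in cluster 3, whereas 457 ABL cells were in cluster 3, 197 in cluster 6, which held no CONT cell, and 52 in cluster 11.

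Between ablated and control femurs, Hey1 was the 1 Notch gene that passed the test in reticular cells, in the fit that paired libraries by replicate. CONT and ABL were compared within replicates with edgeR's quasi-likelihood test and Benjamini-Hochberg adjustment over 11484 genes, of which 4.69% passed (2.47% as higher and 2.22% as lower in ABL), and 1 of 7 Notch genes tested did. Hey1 encodes a repressor of the Hey family. It stood at 8.68 CPM in CONT and 24.9 CPM in ABL of replicate 1 (55 and 76 UMIs), and at 8.15 CPM in CONT and 20.3 CPM in ABL of replicate 2 (213 and 60 UMIs). Both ABL libraries lay above both CONT libraries, an order whose share among all genes was not counted. The log2 difference was 1.32 ± 0.28 (SE, n = 2 libraries per condition, edgeR adjusted p = 0.000405), with 1.498 and 1.298 within replicates 1 and 2.

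The Hey1 call rested on pairing the libraries by replicate, which leaves 1 residual degree of freedom. Without the replicate block its log2 difference was 1.32 with an adjusted p of 1.00, with DESeq2 it was 1.30 with an adjusted p of 0.140, and with any 1 of the 4 libraries left out it was between 1.22 and 1.403 with adjusted p from 0.587 to 1.00. An exact two-sided permutation test of 2 against 2 libraries cannot fall below 2 in 6 and so cannot pass. CONT and ABL femurs were those of the same mice by the study's methods, but the Xist levels above show that this pairing was not complete in replicate 2. In replicate 1 the mix of sexes in reticular cells differed between CONT and ABL as well. There Ddx3y stood at 55.8 and 13.1 CPM, and a Xist UMI was found in 44.6% and 78.9% of cells, without thinning. The part of sex in the Hey1 difference was not tested.

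The difference in Hey1 was also seen in shares of cells. In replicate 1 the reticular cells with a Hey1 UMI made up 3.55% (CONT) and 11.6% (ABL), and in replicate 2 they made up 7.30% and 12.5%. After thinning these were 1.49% and 3.91%, and 1.59% and 4.66%, so the order held at equal depth. In hematopoietic cells of the same libraries Hey1 was at 0.840, 1.54, 0.17 and 0.331 CPM. Empty droplets of replicate 1 held 8.23 CPM (CONT) and 26.2 CPM (ABL), near the reticular levels there, and those of replicate 2 held 7.43 and 5.44 CPM. With the free RNA profile subtracted, the log2 difference was 1.32 ± 0.27 (SE, edgeR adjusted p = 0.00116).

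Markers of several other classes were higher in the ABL libraries along with Hey1, those of pre-osteoblasts among them. The 6 pre-osteoblast genes were all detected in reticular cells of every library and summed to 458 CPM in CONT against 758 CPM in ABL (replicate 1) and to 463 CPM against 688 CPM (replicate 2), and their part in the result was not tested by the comparison itself. Reticular cells without a UMI of any of them numbered 279, 33, 66 and 40, and Hey1 there stood at 9.38, 14.1, 16.2 and 21.03 CPM from 9, 2, 8 and 5 UMIs, too few to be tested. Their intervals overlapped in both replicates (4.29 to 17.8 against 1.71 to 51.1 CPM, and 7.00 to 31.9 against 6.83 to 49.1 CPM). The 7 chondrocyte markers summed to 64.8, 158, 46.9 and 98.99 CPM in reticular cells, the 8 periosteal fibroblast markers to 531, 740, 459 and 835 CPM and the 8 mural markers to 98.6, 119.5, 71.6 and 184 CPM, each higher in ABL in both replicates, while the 7 osteoblast markers were lower in ABL (3900.1, 3044, 7284 and 2662 CPM). The part of these in the result was not tested. The 12 endothelial markers summed to 48.7, 15.1, 13.4 and 34.6 CPM in reticular cells and so were near 0.

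Hey1 was higher in ABL in 11 of 13 reticular clusters that held cells of both libraries of a replicate. In replicate 1, cluster 1 held 9.90 CPM in CONT and 37.5 CPM in ABL and cluster 4 held 15.6 and 44.1 CPM. In replicate 2, cluster 5 held 5.21 and 44.5 CPM and cluster 10 held 37.8 and 84.4 CPM. The 2 exceptions, cluster 12 of replicate 1 and cluster 7 of replicate 2, held 6 and 18 ABL cells and no Hey1 UMI in them. Some of the clusters counted as higher also rest on few UMIs: cluster 0 of replicate 1 on 6 in each library, and cluster 14 of replicate 2 on 0 in CONT and 1 in ABL. The intervals of CONT and ABL overlapped in cluster 4 of replicate 1 and in cluster 10 of replicate 2. How many of all genes showed such an order of clusters was not counted. Clusters of a replicate share their libraries and are no replicates.

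**Figure D4:**
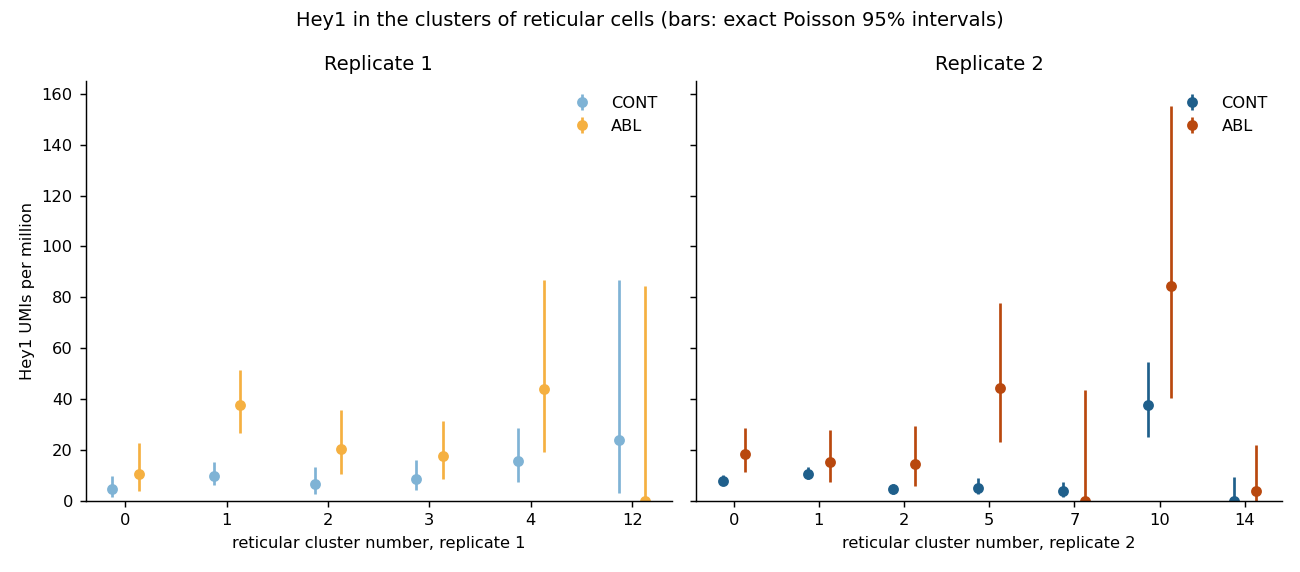
Hey1 CPM (y axis) in each reticular cluster (x axis), by condition, for replicate 1 (left) and replicate 2 (right), with exact Poisson 95% intervals. ABL lay above CONT in 11 of 13 clusters, with the highest values in cluster 10 of replicate 2 (37.8 and 84.4 CPM).

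Jag1 differed in the same direction as Hey1 without passing the test. It stood at 23.0 CPM in CONT and 30.8 CPM in ABL of replicate 1, and at 24.8 CPM and 45.1 CPM in those of replicate 2, so both ABL libraries lay above both CONT libraries. The log2 difference was 0.56 ± 0.23 (SE, edgeR adjusted p = 0.190), and Jag1 too was higher in ABL in 11 of 13 clusters. How many of all genes showed such an order of libraries or clusters was not counted, so the order alone does not set Jag1 apart.

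The other 5 genes tested in reticular cells did not pass. Notch1 had a log2 difference of -0.17 ± 0.23 (edgeR adjusted p = 0.802), Notch2 of -0.27 ± 0.24 (adjusted p = 0.677) and Notch3 of 0.00 ± 0.25 (adjusted p = 1.00). Hes1 had a log2 difference of -0.22 ± 0.33 (adjusted p = 0.833). Heyl was at 102 CPM in CONT and 135 CPM in ABL of replicate 1 but at 126 and 73.2 CPM in those of replicate 2, opposite directions that left a log2 difference of -0.28 ± 0.26 (adjusted p = 0.693). Dll4 and Nrarp, with 1 to 9 UMIs a library, were too low to be tested.

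**Figure D5:**
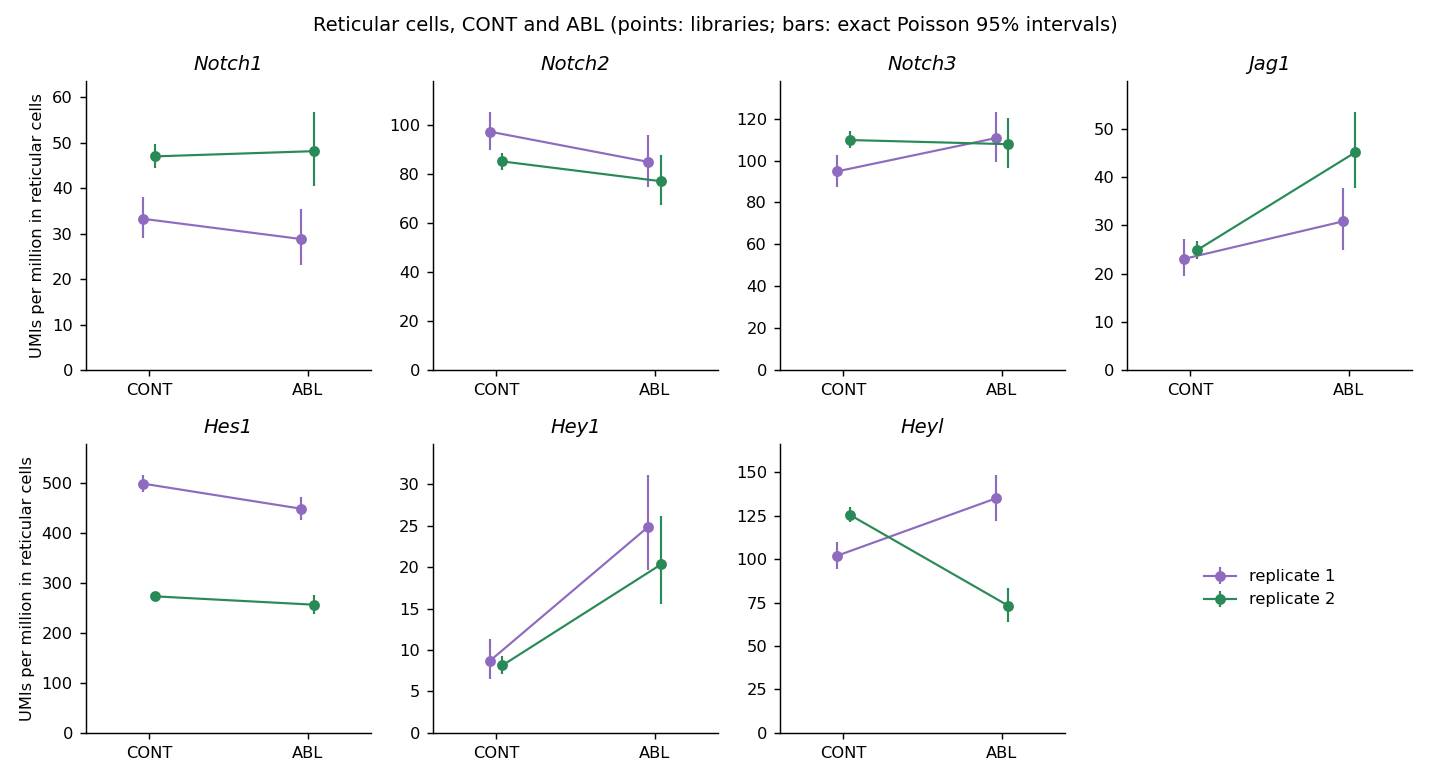
CPM (y axis) of the 7 Notch genes tested in reticular cells of CONT and ABL femurs (x axis); lines join the 2 libraries of a replicate and bars are exact Poisson 95% intervals. Hey1 rose in both replicates (8.68 to 24.9 and 8.15 to 20.3 CPM), and Heyl lines cross.

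None of the 32 other pathway genes tested in reticular cells passed. Their median log2 difference was 0.02 against -0.01 over all genes tested. Rbpj had a log2 difference of -0.85 ± 0.28 (edgeR adjusted p = 0.0593) and was lower in ABL in both replicates, at 124 and 93.7 CPM and at 303 and 142 CPM.

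Over all mesenchymal cells (1609, 751, 2067 and 1885), none of the 8 Notch genes tested passed, where 0.139% of 13678 genes did (0.117% as higher and 0.0219% as lower). Heyl was at 92.7 CPM in CONT and 85.9 CPM in ABL of replicate 1, and at 122 and 12.7 CPM in those of replicate 2 (log2 difference -1.72 ± 0.74, edgeR adjusted p = 0.336). Notch3 was at 89.4 and 73.0 CPM, then 108 and 21.7 CPM (-1.34 ± 0.55, adjusted p = 0.319), and Notch1 at 32.8 and 26.5 CPM, then 47.3 and 15.1 CPM (-1.02 ± 0.44, adjusted p = 0.340). The differences in replicate 2 were the larger ones, in the library with 706 periosteal fibroblasts and 517 mesenchymal cells that were given no class. The latter held Heyl at 11.7 CPM, Notch3 at 17.9 CPM and Notch1 at 17.6 CPM. The makeup of the mesenchymal cells and the levels within them cannot be told apart in this sum. Hey1 had a log2 difference of 0.26 ± 0.50 (adjusted p = 0.867), and none of 38 other pathway genes passed.

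In endothelial cells none of the 6 Notch genes tested passed, nor did any of 25 other pathway genes, where 0.0321% of 6236 genes did. Hes1 stood at 263 CPM in CONT and 494 CPM in ABL of replicate 1, and at 202 and 276 CPM in those of replicate 2 (log2 difference 0.75 ± 0.51, edgeR adjusted p = 0.978). Dll4 was at 64.3 and 58.5 CPM, then 53.5 and 113 CPM (0.62 ± 0.51, adjusted p = 0.978), and Notch1 at 123 and 65.0 CPM, then 282 and 182 CPM (-0.68 ± 0.47, adjusted p = 0.978). Notch1 was lower and Hes1 higher in ABL in both replicates, within the error of the fit. Without ABL replicate 1, which had 73 shallow cells, the log2 differences were 0.28 ± 1.05 for Hes1, 0.97 ± 0.83 for Dll4 and -0.07 ± 1.03 for Notch1 (each with an edgeR adjusted p of 1.00). That of Notch1 was 0.02 without CONT replicate 2, -1.10 without CONT replicate 1 and -1.61 without ABL replicate 2, and that of Dll4 was 0.00 without ABL replicate 2.

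The effect of ablation was not shown to differ between endothelial and reticular cells for any of the 9 genes. An interaction fit over both classes called 0 of 11298 genes with edgeR (384 at an unadjusted p under 0.05), and the largest interaction among the 9 by its p was that of Hes1, at 0.92 ± 0.46 (unadjusted p = 0.0717, adjusted p = 1.00). For Hey1 it was -1.27 ± 1.22 (adjusted p = 1.00), so a rise particular to reticular cells was not shown.

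Genes outside the pathway lists were ranked by how closely their levels followed each Notch gene over 31 classes of the libraries with at least 30 cells, as Pearson's r of log2(CPM + 10) among 5994 genes. The points share libraries, depth and free RNA, and r is given as a description. Dll4 was closest to Cdh5 (0.989), Rasip1 (0.981) and Flt4 (0.977), and Nrarp to Mmrn1 (0.942), Myct1 (0.934) and Flt4 (0.932). Cdh5 and Flt4 are endothelial markers that took part in naming the classes. Notch1 was closest to Snrk (0.893), Cds2 (0.857) and Znrf1 (0.851).

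Notch3 was closest to Podnl1 (0.958), Csf1 (0.952) and 1500009L16Rik (0.95), and Heyl to Thsd4 (0.956), Kng1 (0.949) and Dpep1 (0.948). Mural cells, with fewer than 30 cells a library, were not among the points, so these follow the reticular pattern of both genes. Hey1 was closest to Slc20a2 (0.922), a phosphate transporter, Kcnk2 (0.918) and Smad6 (0.883), an inhibitor of BMP signalling. Hes1 was closest to Slc38a2 (0.934), Socs2 (0.932) and Jund (0.912), Jag1 to Chst2 (0.947), Tmem2 (0.923) and Ece1 (0.923), and Notch2 to Ifngr2 (0.872), Idh1 (0.857) and Gstm1 (0.853).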

How the data were processed

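The authors processed the reads with Cell Ranger against mm10 with reporter sequences added, and deposited raw UMI counts of all barcodes (737280 or 6794880 a library), so cells were called here with the thresholds of the study, 500 genes or more and mitochondrial UMIs of 20% or less with version 2 chemistry, or 1000 genes and 15% with version 3. Libraries held 22889380 to 44784072 UMIs, of which 61.4% to 86.7% were in cells. Scrublet (scanpy 1.11.5) marked 107, 6, 2 and 14 doublets; since it marked few cells they were kept, and removed as an alternative. Droplets with at most 300 UMIs gave the free RNA profile.

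Each library was clustered in Seurat 5.3.0 (R 4.3.3; 2000 variable genes, 30 components, 20 neighbours, resolution 0.8), and mesenchymal cells of each replicate were integrated by CCA. The 9 Notch and 47 other pathway genes took no part in clustering. Clusters were named from fixed markers, by thresholds set after the data had been seen. Cells of unnamed lineage numbered 330 in CONT replicate 1 and 36 in CONT replicate 2. Mesenchymal cells given no class numbered 102, 110, 14 and 517 in the 4 libraries, and of the fits they entered only that over all mesenchymal cells. Hematopoietic cells given no class numbered 298, 59 and 81 in CONT replicate 1, ABL replicate 1 and ABL replicate 2. UMI counts were summed per class and library and tested with edgeR 4.0.16 (quasi-likelihood, TMM, Benjamini-Hochberg adjustment over all genes tested, threshold 0.05). The SE of an edgeR log2 difference was its absolute value divided by the square root of the test's F statistic. It can be too small for genes with few UMIs in a class, such as Dll4 and Mfng in reticular cells. The fits were also run on simulated counts that had no difference between replicates, which cannot test calls that rest on 1 residual degree of freedom here. DESeq2 1.42.0 was an alternative. Classes needed 10 cells a library. Replicate was a block because the replicates differed in Chromium chemistry and CONT and ABL femurs came from the same mice by the study's methods. Differences between replicates in CONT and in ABL correlated over genes at 0.732 (reticular, 10828 genes), 0.336 (mesenchymal) and 0.455 (endothelial). Since chemistry differed between the replicates in both conditions, this correlation cannot show that mice were paired. Cells of a library are not replicates. Intervals are exact Poisson 95% intervals and cover counting error only. Likeness was ranked among genes of at least 20 CPM on average, for Notch genes reaching 50 CPM. The genes named were the 9 Notch genes, pathway genes past the threshold, and the 3 closest genes of each; Rbpj in reticular cells, Hey2, Lfng and single marker genes were named after their values were seen. Members and lists were chosen with earlier results of these data known. A marker gene of the lists is not reported here.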

Additional observations from a re-analysis of the deposited data

Results flagged for a closer look

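Hes1 had log2 ratios of opposite sign in endothelial and reticular cells in both replicates, and neither difference passed a test. The log2 ratio of Hes1, ABL over CONT, was 0.90 and 0.45 in endothelial cells and -0.15 and -0.09 in reticular cells of replicates 1 and 2, and the interaction of 0.92 ± 0.46 (SE) did not pass edgeR's quasi-likelihood test (unadjusted p = 0.0717, adjusted p = 1.00). The endothelial cells of ABL replicate 1 were shallow, and empty droplets of that library held Hes1 at 166 CPM. The sign in reticular cells was not fixed: with 1 library left out the value ran from -0.63 to 0.22. Nrarp had the same signs, at 0.07 and 0.06 in endothelial cells and -0.60 and -0.01 in reticular cells. It was left out here because it had only 1 to 9 reticular UMIs a library. How many of all genes had such signs was not counted.

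Notch3 stood at 149 CPM (81 UMIs, exact Poisson 95% interval 119 to 186) in the unnamed cluster of CONT replicate 2, 36 cells outside every comparison, above each named class of that library. The cluster carried the mural marker Rgs5 at 1048 CPM and the osteoblast marker Bglap at 7242 CPM, and a Notch3 UMI was found in 16 of its 36 cells. Both markers were picked from their lists after their values were seen, and the other markers are not given, so they do not name the cluster. In reticular cells of that library the 7 osteoblast markers summed to 7284 CPM, so osteoblast marker RNA was not particular to this cluster. The 8 mural markers summed to 71.6 CPM there.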

How the results depend on the processing

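No Notch gene that passed a test changed sign under the alternatives run. The losses were those given above for Hey1 in reticular cells and for Notch2, Notch3 and Heyl between endothelial and reticular cells. Of the endothelial against reticular values, 131 of 135 kept their side of the threshold, as did all 81 of the interaction. For ABL against CONT, 133 of 139 values in reticular cells, all 96 in endothelial cells and 124 of 125 over all mesenchymal cells counted as unchanged. These counts include log2 ratios of 1 replicate alone, which have no p-value and so no side to keep. Such ratios counted as unchanged when near the fit, which says little. For Notch1, 18 of 20 reticular and 14 of 16 endothelial values had a test. Over all mesenchymal cells Heyl passed without a low-count filter (-1.72, edgeR adjusted p = 0.0362). Between the osteoblast lineage and reticular cells 15 of 98 passed that had not, 8 of them Heyl.

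Counts of genes called moved more, so the shares called beside the Notch genes depend on the fit. In reticular cells (539) they were 0 without the replicate block, 175 with DESeq2, 0 to 17 without 1 library, and 33 in cells without a pre-osteoblast marker UMI. Over all mesenchymal cells (19) they were 0 without the replicate block, 600 with DESeq2, 0 with DESeq2 size factors, 1120 without a low-count filter, 307 with a floor on UMIs, 90 with a stricter cell filter, 1 without doublets, 83 in cells with a tdTomato UMI, 67 with free RNA subtracted, 123 without shared barcodes, and 0 to 71 without 1 library. In endothelial cells (2) they were 0 without the replicate block, 5 with DESeq2, 0 with DESeq2 size factors, 22 without a low-count filter, 66 with a floor, 8 without doublets, 0 in tdTomato cells, 0 with free RNA subtracted, 1 without shared barcodes, and 0 to 55 without 1 library. Between endothelial and reticular cells (3345) they were 1403 with free RNA subtracted, where 66.9% of calls were higher against 45.9%, and 1988 to 3382 without 1 library. Between the osteoblast lineage and reticular cells (723) they were 1496 without a low-count filter, 132 with free RNA subtracted, and 122 to 1452 without 1 library. The interaction (0) called 2 with DESeq2 size factors, 45 without a low-count filter, 50 with a floor, 41 with a stricter filter, 1 without doublets, 2 in tdTomato cells and 2 without shared barcodes. The cause was not tested.

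The alternatives without shared barcodes and without pre-osteoblast marker UMIs were chosen after seeing the data. Endothelial cells by their own UMIs could not be compared between conditions, and the interaction could not be fitted with them or at resolution 0.4. Depth limits Dll4 and Nrarp in reticular cells and every gene in mural cells and in the endothelial cells of ABL replicate 1. Where a library was left out of ABL against CONT, the fit had no block and a lone library was taken to vary like the others.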

Other observations

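Hey2, a relative of Hey1 that was too low to be tested, stood at 18.8, 74.0 and 53.5 CPM in the mural cells of CONT replicate 1, ABL replicate 1 and ABL replicate 2 (1, 6 and 4 UMIs), with no more than 2.03 CPM in reticular and 5.36 CPM in endothelial cells. Lfng, a fringe enzyme like Mfng, did not follow it: it stood at 18.2 to 60.8 CPM in endothelial and 14.4 to 44.9 CPM in reticular cells. In hematopoietic cells Mfng was at 4.25 to 7.32 CPM, above its reticular levels of 0 to 0.631 CPM in every library.

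The B-lineage class held Hes1 at 126, 115 and 85.6 CPM in CONT replicate 1, ABL replicate 1 and CONT replicate 2, against 5.52 to 20.1 CPM in neutrophils and erythroid cells of any library. Empty droplets of CONT replicate 1, ABL replicate 1 and CONT replicate 2 held more Hes1, at 180, 166 and 208 CPM. The part of free RNA in the B-lineage values was not tested. The 330 unnamed cells of CONT replicate 1, with a median of 1357 UMIs, held Hes1 at 662 CPM and Notch3 at 108 CPM.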
